A study of Mus musculus with 82 samples.

Results

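Lifr, Il6st, Jak1, Stat3 and Socs3 encode the path by which leukaemia inhibitory factor (LIF) reaches the nucleus of mouse embryonic stem (ES) cells. These 5 genes were chosen by name as members of the LIF and STAT3 pathway, and were followed among 24754 curated RefSeq genes through sense reads on their spans. Nascent RNA was measured in V6.5 mouse ES cells, a line of 1 genotype with no treatment compared, so that all groups share the cell line and differ in the assay. Per the methods, the cells grew in medium with fetal bovine serum and LIF. Every assay lets engaged RNA polymerases run on in permeable nuclei with nucleotides that carry a propargyl group, and joins the RNA to a DNA adaptor by click chemistry, so that the 5′ end of a read marks where a polymerase stood. AGTuC used bulk nuclei and a strong detergent (2 libraries), inAGTuC used many intact nuclei in wells (4 libraries), and scGRO-seq used single nuclei sorted into wells (10 batches with 2512 cells that passed the filters).

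LIF binds its receptor LIFR, which pairs with the signalling subunit gp130, the product of Il6st. JAK kinases bound to these receptors phosphorylate STAT3, which enters the nucleus and activates its targets, among them transcription factors that hold ES cells in the naive state. Socs3 is such a target and encodes an inhibitor that binds gp130 and JAK kinases and so closes a feedback loop.

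Both AGTuC libraries came from batch Exp125c, so that assay and batch cannot be told apart in any comparison with AGTuC. The labels do not say that libraries came from separate cultures, and p-values therefore measure the spread between these libraries, which may be technical. Depth in unique molecular identifiers (UMIs, deduplicated reads that no other library shared) ran from 2231837 to 4755740 in AGTuC, from 623265 to 1462003 in inAGTuC and from 223119 to 4928371 in scGRO-seq batches. The inAGTuC library Exp234_c11 stood apart, with 1.1 antisense UMIs per sense UMI on genes, against 0.237 to 0.474 in the other 3 inAGTuC libraries and 0.198 to 0.524 in scGRO-seq batches. Of ES cell markers, Sox2 had a body level of 98.5, 22.1 and 13.3 CPM per kb (UMIs on the gene body, scaled to all gene body UMIs of the library as CPM and divided by its length) in AGTuC, inAGTuC and scGRO-seq, whereas Dppa5a, another such marker, had no body UMI in inAGTuC and scGRO-seq. The body window of Dppa5a is only 148 bp, and 41 scGRO-seq UMIs in 40 cells lay on its span.

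The genes differ greatly in length. Jak1 lies on the minus strand at chr4:101151974-101265282 (GRCm38) and spans 113 kb. Lifr lies on the plus strand at chr15:7129572-7197489 and spans 67.9 kb, Stat3 on the minus strand at chr11:100886806-100939540 with 52.7 kb, and Il6st on the plus strand at chr13:112464070-112506860 with 42.8 kb. Socs3, on the minus strand at chr11:117966079-117969366, spans 3.29 kb, and exons cover 83.1% of it, against 4.68% to 15.2% of the other genes. Only the 3' end of Raver2 and the small nuclear RNA gene Gm24468 overlap a member, both on the opposite strand of Jak1.

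The promoter of Socs3 is shown because it was the only one of the members' 6 RefSeq promoters (2 for Lifr) that held TTCNNNGAA, the letters STAT dimers are known to bind, searched as a palindrome that reads alike on both strands. The match, in capitals, begins at position -154, counted from the start. It is given 5′ to 3′ on the strand of the gene, as the 300 bases around the start in RefSeq's promoter table (GRCm38, chr11:117969317-117969616, minus strand).
Socs3: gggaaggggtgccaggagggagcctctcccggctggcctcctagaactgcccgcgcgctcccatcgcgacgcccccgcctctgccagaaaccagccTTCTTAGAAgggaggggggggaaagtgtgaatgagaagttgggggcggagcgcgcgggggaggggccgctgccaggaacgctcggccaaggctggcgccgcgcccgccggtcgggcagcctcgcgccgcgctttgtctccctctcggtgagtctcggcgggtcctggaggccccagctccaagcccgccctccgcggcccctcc
Of 32851 promoters of the same length, 8.3% held TTCNNNGAA. TATAAA was in none of the members' promoters and in 13.6% of all. GC content was 81.3% at the upstream start of Lifr, 73.3% at Socs3, 68.3% at Il6st, 64.7% at Jak1 and 60.7% at Stat3, against a median of 52.7% over all promoters. At the downstream start of Lifr it was 53.3%, close to that median.

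AGTuC showed a sharp peak of polymerases just past the start of all 5 genes. The 50 bp bin with most UMIs lay 50 to 99 bp after the start of Lifr, 100 to 149 bp after that of Il6st and of Jak1, 150 to 199 bp after that of Stat3 and in the next bin, from 200 bp, after that of Socs3. At Socs3 this bin alone held 108 of 826 UMIs on the gene, or 13.1%. At Lifr, 126 UMIs lay within 500 bp of the upstream start and 13 within 500 bp of the downstream one. Antisense UMIs within 1 kb upstream, as divergent transcription leaves, numbered 121 at Lifr, 60 at Il6st, 56 at Socs3, 34 at Stat3 and 10 at Jak1 in AGTuC, and between 2 and 17 at each gene in inAGTuC and in scGRO-seq. In AGTuC, 770 sense UMIs lay within 5 kb past the end of Socs3, nearly as many as on the gene, whereas inAGTuC had 14 there beside 55 on the gene and scGRO-seq 11 beside 61.

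**Figure D1:**
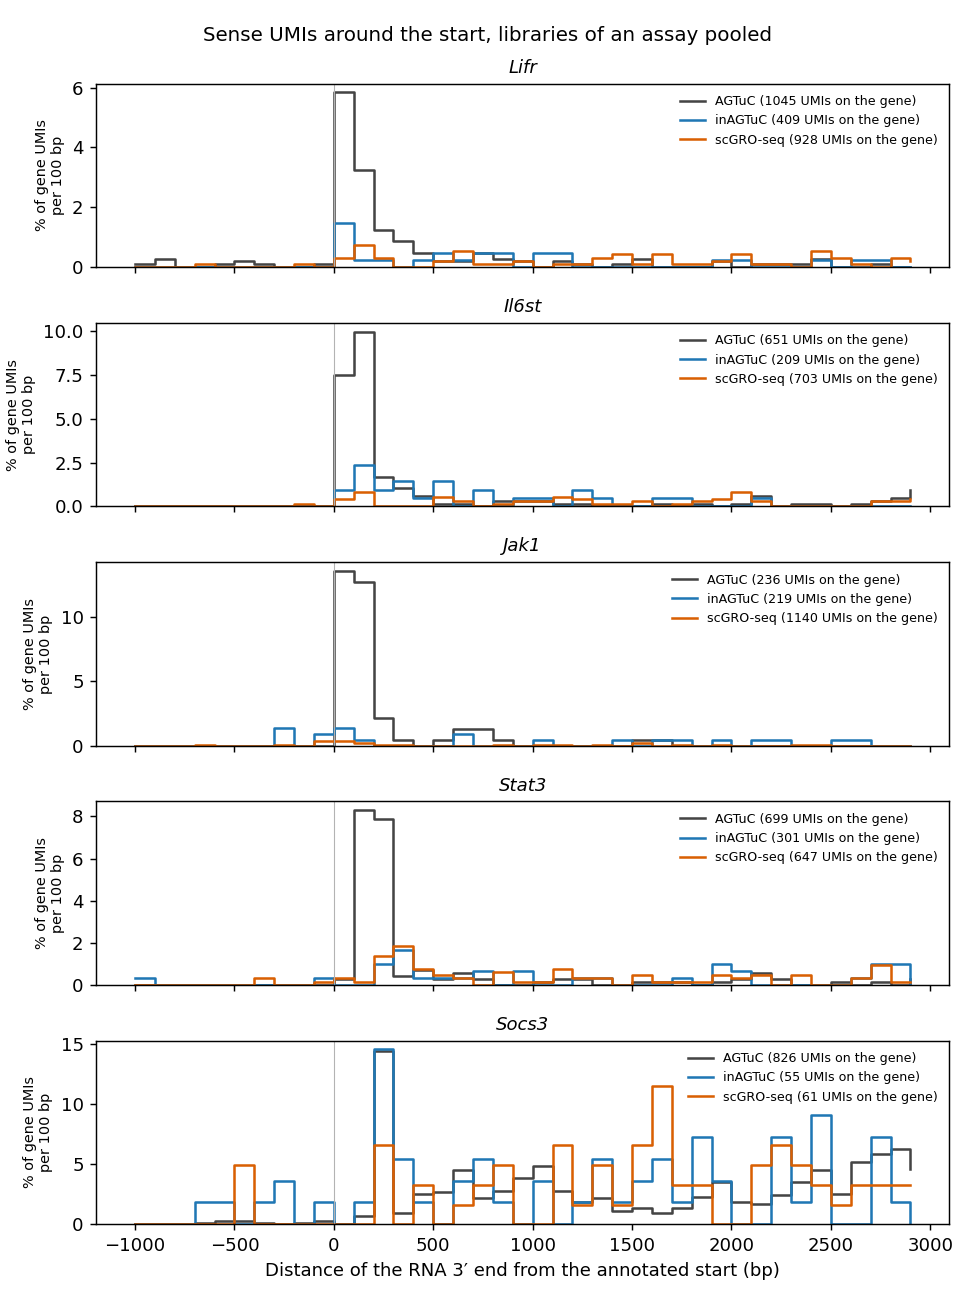
Percent of a gene's sense UMIs in each 100 bp bin (y axis) by distance of the RNA 3′ end from the annotated start in bp (x axis), for AGTuC, inAGTuC and scGRO-seq with libraries pooled. AGTuC peaks past the start of every gene, while inAGTuC and scGRO-seq are low at the other 4 genes and uneven along Socs3, where they rest on 55 and 61 UMIs on the whole gene.

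Promoter-proximal polymerases at Jak1, Stat3 and Lifr were fewer relative to the gene body in inAGTuC than in AGTuC. The promoter window reached 500 bp to both sides of the start, and the body left out 500 bp at both ends. At Jak1, 68 promoter and 168 body UMIs in AGTuC put 28.8% at the promoter (95% Wilson interval 23.4 to 34.9, counting error only), against 4.02% (2.13 to 7.46) in inAGTuC with 9 and 215 UMIs. Lifr had 12.1% (10.2 to 14.2) against 2.23% (1.18 to 4.19), Stat3 17.9% (15.2 to 20.9) against 3.37% (1.84 to 6.09), and Il6st 21.3% (18.3 to 24.6) against 6.4% (3.78 to 10.6). Promoter UMIs in single inAGTuC libraries were few, between 0 and 6 at these 4 genes, and promoter over body in both AGTuC libraries lay above all 4 inAGTuC libraries at each of them. How many of all genes separate in this way was not counted, here or for the body levels below. Whether such separation is particular to the members therefore cannot be said.

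In a limma voom fit over all genes, the log2 difference in promoter over body, inAGTuC minus AGTuC, was -3.46 ± 1.04 (SE) at Jak1 (adjusted p = 0.00726), -2.63 at Stat3 (adjusted p = 0.0332) and -2.62 at Lifr (adjusted p = 0.0325). Il6st had -1.88 and did not pass the test (limma adjusted p = 0.122). These 3 lower calls of 5 stand beside 45.6% of the 11389 genes tested that were called lower and 0.351% called higher, and the median difference was -2.62 over the members and -2.26 over all genes. The median member thus lay close to the median gene, and 40.3%, 40% and 19.6% of genes lay below Lifr, Stat3 and Jak1. Without the inAGTuC library Exp234_c11, limma's adjusted p was 0.00715 for Lifr, 0.0109 for Jak1, 0.0118 for Stat3 and 0.0507 for Il6st. With 1 AGTuC library left out, the other is assumed to vary like the other groups, and 0 of 5 members were called in either fit (limma adjusted p between 0.0627 and 0.169 for these 3). The log2 differences were then -3.54 and -3.34 at Jak1, -2.66 and -2.58 at Stat3 and -2.81 and -2.39 at Lifr. Without Exp208_c12 the calls of Lifr and Stat3 were lost (limma adjusted p = 0.0749 and 0.0616), without Exp208_c14 that of Stat3 (limma adjusted p = 0.0979) and without Exp261_c16 that of Lifr (limma adjusted p = 0.0849). Median-ratio size factors were set separately for promoter columns (from 81 genes) and body columns. They therefore scale out in part a difference in promoter over body that most genes share. With them 0 of 5 members were called. The log2 differences were -1.97 at Jak1, -1.15 at Stat3, -1.13 at Lifr and -0.41 at Il6st (limma adjusted p between 0.2 and 0.829). The median gene then lay at -0.79, and 110 genes were called higher and 619 lower, against 40 and 5196.

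Socs3, the feedback inhibitor, did not pass the test. It had 160 promoter and 537 body UMIs in AGTuC, or 23% (20 to 26.2), and 17 and 39 in inAGTuC, or 30.4% (19.9 to 43.3). The log2 difference was 0.79 (limma adjusted p = 0.534), and 97.6% of all genes lay below it. It was 2.25 with median-ratio size factors (limma adjusted p = 0.164), 1.35 without Exp208_c14, 0.50 without Exp208_c12, 0.49 without Exp234_c11, and 0.42 with all deposited reads and 0.48 with a promoter window from 100 bp upstream to 300 bp downstream (limma adjusted p between 0.34 and 0.719 for these 5). Among 988 genes of 2.5 to 5 kb, the length class of Socs3, 93.6% lay below. Whether Socs3 differed from the other members was not tested. Promoter over body also moves with the body level, its denominator. As given below, that level differed by -3.23 at Socs3 and by 1.15 at Jak1 (not called) on the log2 scale, inAGTuC minus AGTuC. The ratio therefore does not show that promoter-proximal polymerases were kept at Socs3.

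Between the assays on intact nuclei, no member passed the test of promoter over body. In scGRO-seq the promoter held 1.14% of promoter and body UMIs at Jak1, or 3.02% (1.78 to 5.1) with the pile of reads at 1 base described below left out, 1.53% at Lifr, 1.44% at Il6st, 4.97% at Stat3 and 16.1% (8.69 to 27.8) at Socs3. The value of Stat3 leans on batch Exp263, where promoter over body was 0.333, far above the other batches, against 0.0523 with batches pooled. The log2 differences, scGRO-seq minus inAGTuC, ran from -1.18 at Il6st to 0.58 at Stat3, with limma adjusted p of at least 0.982. Over all genes 0% were called higher and 0% lower, 532 of 11389 genes had an unadjusted p under 0.05, and limma-trend called none either. With libraries as units, 2046 genes were called higher and 23 lower, and no member was called. Batch was entered there as a random block, but the block had no effect because library was already a term. Libraries of 1 batch thus counted as separate units, and these calls do not allow for batch. Without Exp234_c11 the difference turned from -0.03 to 0.60 at Lifr (limma adjusted p = 0.936).

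Levels of the gene body set Socs3 apart. Its body level, in CPM per kb, was 79.6 and 65.3 in the AGTuC libraries. In inAGTuC it was 5.12 and 19.2 in the libraries of Exp208, 9.03 in Exp234_c11 and 3.75 in Exp261_c16. The groups did not overlap, and the share of all genes for which this holds was not counted. The log2 difference, inAGTuC minus AGTuC, was -3.23 ± 0.566 (SE; limma adjusted p = 0.000524), and without Exp234_c11 it was -3.32 (limma adjusted p = 0.00153). Over the 14830 genes tested, 17.4% were called lower and 16.8% higher, and 0.735% lay below Socs3. The split of calls moved with the scaling and the model, to 2976 higher and 1778 lower with median-ratio factors and 2222 higher and 825 lower by limma-trend, against 2493 and 2579. It also rested on the AGTuC libraries, with 1338 higher and 1348 lower without Exp125c_c01, and 237 higher and 730 lower without Exp125c_c02. Short genes as a class lay low in this comparison. The median was -1.38 over the 772 genes of 2.5 to 5 kb, of which 44.2% were called lower and 4.92% lay below Socs3, and it was 1.53 over genes longer than 120 kb.

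The receptor genes and Stat3 had body levels between 1.43 and 4.70 in every library and batch. In bulk libraries, fewer cells that transcribe a gene and less RNA per cell cannot be told apart. Lifr had 4.02 and 4.13 in AGTuC, between 2.45 and 3.22 in inAGTuC, and between 1.77 and 4.70 in scGRO-seq batches with a median of 2.76. Il6st had 3.48 and 3.64 in AGTuC, between 1.87 and 3.05 in inAGTuC, and between 1.75 and 3.66 in scGRO-seq with a median of 2.46. Stat3 had 3.04 and 3.36 in AGTuC, between 1.43 and 4.29 in inAGTuC, and between 1.49 and 3.43 in scGRO-seq with a median of 2.57. Both AGTuC libraries exceeded every inAGTuC library at Lifr and Il6st, and the groups overlapped at Stat3. The log2 differences, inAGTuC minus AGTuC, were -0.61 ± 0.268 at Il6st, -0.47 ± 0.257 at Lifr and -0.28 ± 0.304 at Stat3, none of which passed the test (limma adjusted p = 0.0803, 0.165 and 0.491).

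Jak1, the kinase gene, had the lowest body level of the members in AGTuC and the opposite direction. It had 0.440 and 0.449 in AGTuC, then 0.974 and 1.21 in the inAGTuC libraries of Exp208, 1.25 in Exp234_c11 and 0.698 in Exp261_c16. All inAGTuC libraries lay above both AGTuC libraries, but the log2 difference of 1.15 ± 0.628 did not pass the test (limma adjusted p = 0.159). Long genes as a class lay high in this comparison. Among 2234 genes of 60 to 120 kb, the class of Jak1 and Lifr, the median was 0.353 and 26.5% were called higher. Of this class, 68.1% lay below Jak1 and 14% below Lifr. A pile of scGRO-seq reads at a single base, described below, entered the shared estimate of spread. Without Exp260b, the batch with most of the pile, the difference was 1.16 (limma adjusted p = 0.0195). With such bases left out, an alternative chosen after the data had been seen, the difference was 1.26 (limma adjusted p = 0.00203). Over a list of 10 genes that ES cells keep silent, the pooled body level was 0.0709 in AGTuC, 0.549 in inAGTuC and 0.653 in scGRO-seq, and without Ttn, which held most of the UMIs, it was 0.0224, 0.226 and 0.214. Means of single silent genes ran from 0 to 1.85 in scGRO-seq. Jak1 without the pile had 0.872 ± 0.228 in scGRO-seq (SD, n = 10). That value is scaled to body UMIs without pile bases, whereas the levels of the silent genes keep such bases. Antisense UMIs on the span of Jak1 were 19.5% of sense UMIs in AGTuC and 55.7% in inAGTuC, and on the other members they were 0.307% to 3.39% in AGTuC and 34.9% to 58.2% in inAGTuC. Without Exp234_c11 they were 43.3% on Jak1 in inAGTuC, and 17.4% to 37.5% on the other members. The part of this background in the level of Jak1 was not tested. Reads of Raver2 and Gm24468, which overlap Jak1 on the opposite strand, were not left out of its antisense UMIs.

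**Figure D2:**
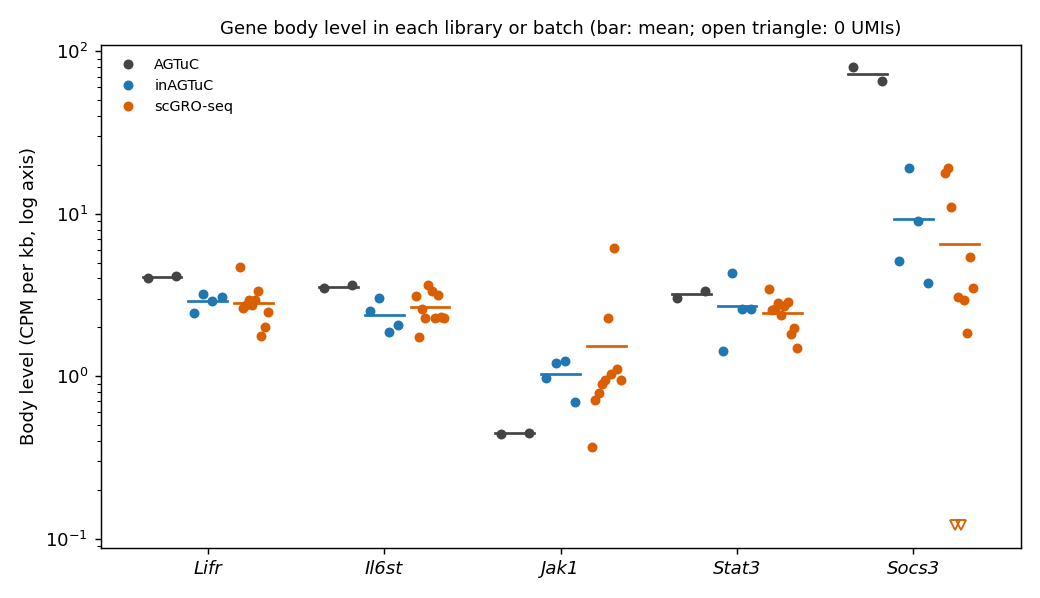
Body level in CPM per kb, that is UMIs per kb scaled to all body UMIs (log axis) for each AGTuC library, inAGTuC library and scGRO-seq batch, with the mean as a bar and batches without a UMI as open triangles. Socs3 falls from 79.6 and 65.3 in AGTuC to between 3.75 and 19.2 in inAGTuC, and the Jak1 point at 6.18 is batch Exp260b.

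Body levels in scGRO-seq and inAGTuC did not differ detectably at any member. The log2 differences, scGRO-seq minus inAGTuC, were 0.35 at Jak1, 0.27 at Il6st, -0.16 at Lifr, -0.19 at Stat3 and -1.0 at Socs3 (limma adjusted p between 0.870 and 0.931). Over all genes 0% were called higher and 0% lower, with 805 of 14830 at an unadjusted p under 0.05, and limma-trend called none. Batch Exp208 held both assays. There Socs3 had 11 in scGRO-seq beside 5.12 and 19.2 in inAGTuC, and Lifr had 2.76 beside 2.45 and 3.22. Il6st had 2.61 beside 2.53 and 3.05, and Stat3 had 2.59 beside 1.43 and 4.29. The scGRO-seq value lay between the inAGTuC values at these 4 genes, and at Jak1 it lay below both, with 0.784 beside 0.974 and 1.21. With the batches that held both assays, Exp208 and Exp261, as a fixed block, the log2 differences were -0.95 at Lifr, -0.76 at Stat3, -0.35 at Il6st and -0.24 at Jak1 (limma adjusted p between 0.946 and 0.949), and Socs3 was not tested.

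Within scGRO-seq no neighbours in the order of body levels differed under the main settings after adjustment over the 4 pairs compared. With pile bases left out, Stat3 over Jak1 passed, and other alternatives are given without adjustment. Mean levels over 10 batches were 6.48 for Socs3, 2.83 for Lifr, 2.68 for Il6st, 2.46 for Stat3 and 1.52 for Jak1. The neighbours follow this order in the same batches that were tested, so the p-values do not allow for the choice of pairs. Socs3 rested on 47 body UMIs and had none in Exp211 and Exp246, where a count of 0 allows up to 5.47 and 6.12. On the log2 scale with 0.5 UMIs added, Stat3 exceeded Jak1 by 1.11 in the mean and in 9 of 10 batches (two-sided exact sign-flip permutation test, p = 0.0293, adjusted p = 0.117 over the 4 pairs). The unadjusted p was over 0.05 without each of 6 batches (exact permutation p between 0.0508 and 0.0586 without Exp156, Exp160, Exp208, Exp211, Exp236 or Exp260). Without the pile the difference was 1.72, in 10 of 10 batches (exact permutation p = 0.00195, the smallest this design allows, and 0.0078 adjusted over the 4 pairs). Neighbours higher in the order, Socs3 over Lifr, Lifr over Il6st and Il6st over Stat3, did not differ beyond their spread under the main settings (exact permutation p = 0.186, 0.746 and 0.371). With all deposited reads, Socs3 exceeded Lifr by 1.15 in the mean and in 10 of 10 batches (exact permutation p = 0.00195, not adjusted). Stat3 over Jak1 had an unadjusted exact permutation p of 0.0176 with those reads and 0.00781 in the first 10 kb. Without Exp260b it was 0.00391.

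Most scGRO-seq reads on Jak1 stood at 1 base. Of 1140 sense UMIs on the gene in kept cells, 704 lay at chr4:101168827, 96455 bp after the start and in an intron, 2178 bp from the nearest exon. The base had no UMI in any of the 4 inAGTuC or 2 AGTuC libraries. Batch Exp260b gave 604 of the 704 UMIs, in 311 of its 529 cells (58.8%), followed by Exp236 with 55, Exp246 with 30, Exp263 with 11, Exp260 with 3 and Exp264a with 1, and the other 4 batches had none. Of the 889 deposited reads at this base 883 were 17 bases long, and 96.2% had a mapping quality of 23, whereas scGRO-seq reads elsewhere on Jak1 had a median length of 37 and most often a quality of 42. Il6st had a smaller pile at chr13:112477716, in an intron, with 35 UMIs, of which 34 were from Exp260b, all from reads of 18 bases. Such bases, with at least 20 UMIs in kept cells, numbered 19110 over the genome and together held 18.4% of all UMIs of these cells. Of them 6043 lay sense on a gene, on 2014 genes (8.14%).

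The genome around both piles is printed 5′ to 3′ on the strand of the RNA, with the aligned stretch in capitals and 60 bases on each side, to show how short the match is (GRCm38, chr4:101168767-101168903 on the minus strand and chr13:112477639-112477776 on the plus strand).
Jak1: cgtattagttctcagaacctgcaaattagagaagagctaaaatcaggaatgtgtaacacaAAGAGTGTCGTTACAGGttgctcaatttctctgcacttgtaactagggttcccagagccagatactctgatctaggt
Il6st: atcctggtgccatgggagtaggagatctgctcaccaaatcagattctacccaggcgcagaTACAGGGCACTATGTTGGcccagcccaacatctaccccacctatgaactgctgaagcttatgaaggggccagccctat
Each stretch in capitals occurred once in the chromosomes of this build as an exact match. The paper states that a version of its DNA adaptor begins with a T followed by ACAGG. The letters TACAGG end the Jak1 stretch and begin the Il6st stretch. Whether the reads at either base mark polymerases was not tested.

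**Figure D3:**
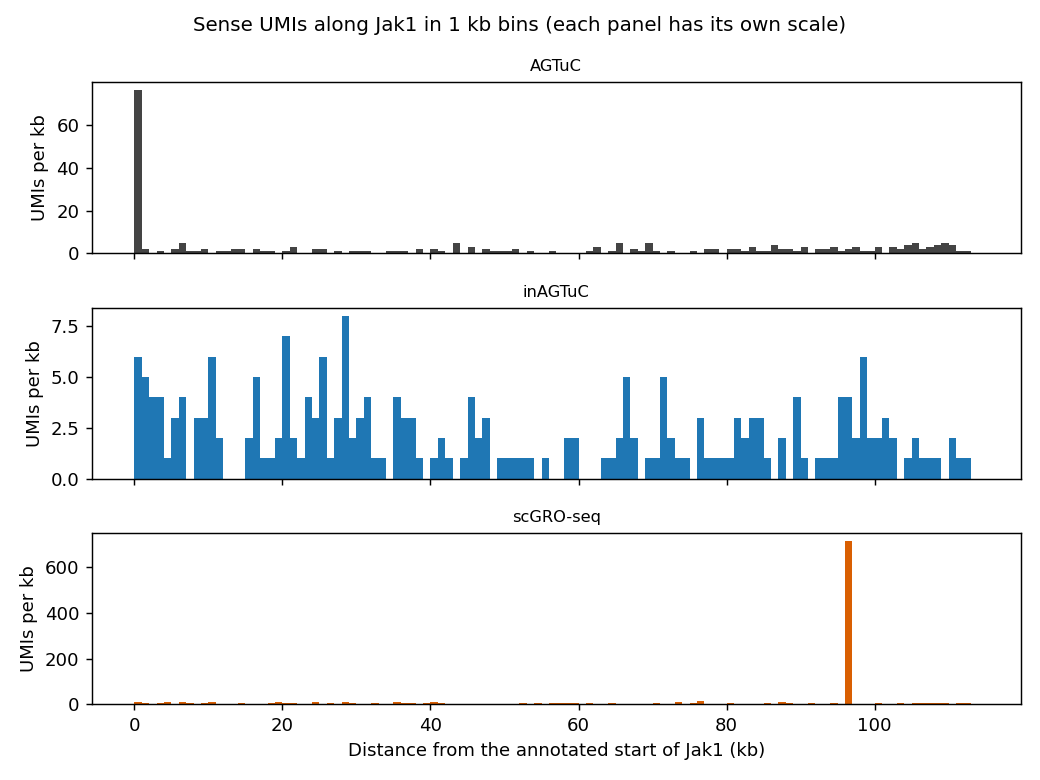
Sense UMIs in 1 kb bins (y axis, a scale of its own in each panel) along Jak1 by distance from the annotated start in kb (x axis). AGTuC is highest in the first bin with 76 UMIs, inAGTuC is spread over the gene, and scGRO-seq has nearly all of its height in the bin that holds the pile of 704 UMIs.

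In single cells, 63.4% of the 2512 cells had a UMI on at least 1 member, with the pile kept in. The share per batch was 27.3% ± 7.67 for Lifr (SD, n = 10 batches), 20.1% ± 6.0 for Stat3, 18.1% ± 7.25 for Il6st, 21.7% ± 16.9 for Jak1 and 2.83% ± 2.22 for Socs3. The wide spread of Jak1 was that of Exp260b, at 61.4% (57.2 to 65.5), and without the pile its share was 13.7% ± 5.72 with batches between 5.83% and 23.7%. Socs3 was seen in 58 cells in all, and in 0 of 93 cells of Exp246, which allows a share of up to 3.23% (3 counts of 93). Of the silent genes, Ttn, a muscle gene of 279 kb, had a UMI in 29.1% ± 14.5 of cells (mean over batches, SD, n = 10) and Cftr, of 152 kb, in 4.03% ± 2.72, and the other 8 had no higher mean share than Cftr. By body level per kb, Ttn had 0.812, close to the 0.872 of Jak1 without the pile, whereas Lifr, Il6st and Stat3 had at least 2.46. With each cell thinned to 1000 UMIs and the pile kept in, the mean shares were 8.71% for Lifr, 6.92% for Jak1, 6.04% for Stat3, 5.3% for Il6st and 0.933% for Socs3. The SD at Jak1 was 6.25, with 22.7% in the highest batch, Exp260b. Its median over batches was 4.85%, below the 5.56% of Stat3.

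**Figure D4:**
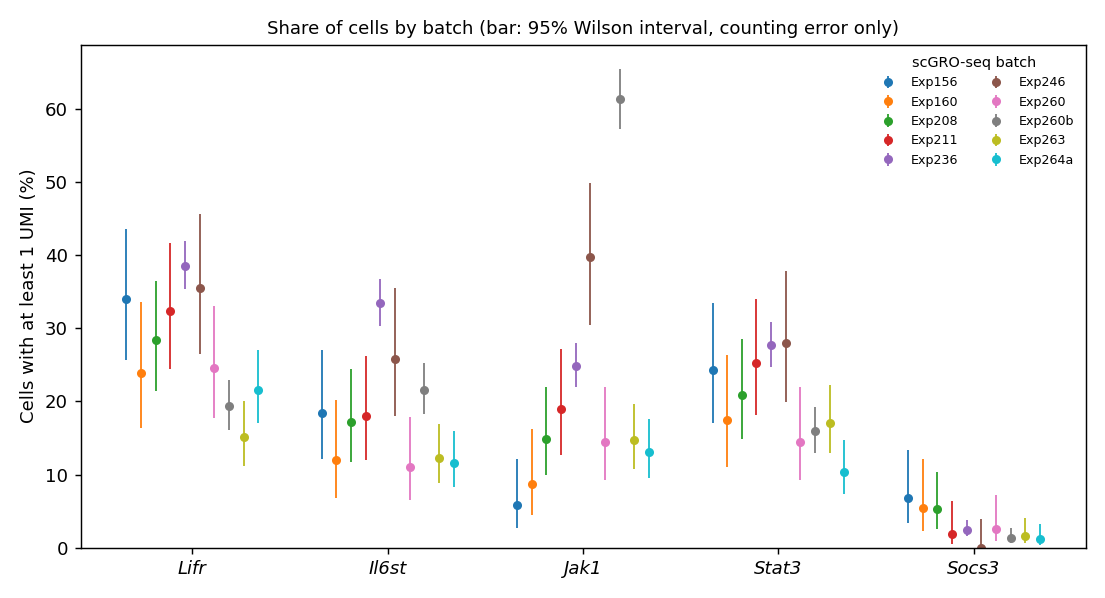
Percent of kept cells with at least 1 UMI on each gene (y axis) in the 10 scGRO-seq batches, with 95% Wilson intervals for counting error. Jak1 in Exp260b reaches 61.4%, and Socs3 stays at or under 6.8% in every batch.

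Taken gene by gene, most cells with a UMI held just 1, while 55.7% of the 1592 cells with a UMI on any member held 2 or more over all members. For single genes, cells with 2 or more were 23.7% of those with a UMI on Lifr, 19% on Il6st, 18.1% on Stat3, 5.17% on Socs3 and 34.3% on Jak1, with the pile kept in. No member was seen in 920 cells, 1 in 881, 2 in 511, 3 in 157, 4 in 41 and all 5 in 2 cells, and the median depth of these cells rose from 2818 UMIs with no member to 7362 with 3. The receptor subunits Lifr and Il6st were seen together in 219 cells, against 193 from the product of their shares within libraries, a product that does not allow for depth per cell. Of the 10 pairs of members, 9 were seen together in more cells than this product, among them Jak1 and Stat3 in 187 against 157, whereas Jak1 and Socs3 were seen together in 11 against 14. Without pile bases 9 of 10 pairs again exceeded it, with Jak1 and Stat3 at 114 against 92.9 and Jak1 and Socs3 at 7 against 8.68. In the first 10 kb of the body, Lifr, Stat3, Il6st and Jak1 had UMIs in 162, 156, 141 and 55 cells. With an assumed capture of 10%, 2 alleles per cell and 4 min for a polymerase to cross this window, that gave 2.59, 2.73, 2.69 and 1.39 bursts per allele per hour. These rates are also divided by an estimated burst size of 1.86, 1.71, 1.57 and 1.18. The sizes rest on just 12, 9, 6 and 1 cells with 2 or more UMIs in this window. Socs3 is too short for the estimate.

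Among 47 other genes of the pathway, the tested targets of STAT3 stood lower in inAGTuC than in AGTuC, and no gene differed between scGRO-seq and inAGTuC. Of the 12 targets, 10 were tested for body level and all 10 were called lower, beside 17.4% of all genes. The other 2 targets had too few UMIs for the test, with mean levels of 0.463 in AGTuC and 4.26 in inAGTuC at Fos, and of 0 and 0.378 at Pramel7, which is named after its values had been seen. Gbx2, a homeobox gene of naive ES cells, fell by 3.40 on the log2 scale (SE 0.645). Pim3, a kinase gene, fell by 2.92 (SE 0.557), Klf5, which encodes a pluripotency factor, fell by 2.17 (SE 0.360), and Mcl1, which encodes a survival factor, fell by 1.51 (SE 0.340; limma adjusted p between 0.00036 and 0.00247 for these 4). The tested targets are short, with a median span of 5.17 kb and 7 under 10 kb, and the share of all tested genes called lower was 68.8% under 2.5 kb, 44.2% from 2.5 to 5 kb, 32.9% from 5 to 10 kb, 23% from 10 to 30 kb and 9.66% from 30 to 60 kb. Of ES cell markers, 2 of which are also targets, 8 of 9 tested were called lower too. Utf1 among them reached the minimum only through AGTuC, with 68 body UMIs there, 2 in inAGTuC and 11 in scGRO-seq. Of the tested targets, Gbx2 and Junb did so too, with 142 and 111 body UMIs in AGTuC. They had 8 and 13 in inAGTuC, and 20 and 19 in scGRO-seq. The part of gene length was not tested.

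The other roles were mixed. Of 8 ligands, 4 were tested for body level and 3 were called lower, beside 17.4% lower and 16.8% higher over all genes. Il11 fell by the most, at -2.13 (limma adjusted p = 0.0306). Lif itself, named here after its values had been seen, had -2.08 (limma adjusted p = 0.00477). Il11 and Ctf1, another ligand called lower, reached the minimum for this test only through AGTuC. They had 103 and 58 body UMIs there, 15 and 14 in inAGTuC, and 18 and 22 in scGRO-seq. The count of 3 ligands therefore depends in part on this minimum. Of receptor genes, Osmr was called higher at 2.79 and Cntfr lower at -1.43, but the level of Osmr was 0.0494 in AGTuC and 0.334 in inAGTuC, beside 0 to 0.178 and 0 to 0.951 over the silent genes. Of the kinases, Jak3 was called lower (-1.41, limma adjusted p = 0.0177), and Tyk2 and Jak2 had -0.66 and 0.85 without passing the test. None of the 6 other STAT genes passed it. Of 13 inhibitor genes tested, Socs2 (-1.76) and Pias3 (-1.70) were called lower, while Pias2, the highest of them in scGRO-seq at 4.63, had -0.06. In promoter over body, 14 of 35 tested genes of the wider list were called lower and none higher, beside 45.6% and 0.351% of all genes, with 8 of them among the 13 inhibitors. The lowest called gene of a role was Fos among the targets (-5.19), Il11ra1 among the receptors (-4.63), Socs5 among the inhibitors (-4.42), Stat5b among the STAT genes (-3.81) and Jak2 among the kinases (-3.69). These 5 reached the minimum of 20 promoter UMIs only through AGTuC, as did Tyk2, Socs4, Socs6, Socs7, Pias4 and Ptpn2 among the other called genes. The count of lower calls therefore depends in part on this minimum. The 5 had 37 to 146 promoter UMIs in AGTuC and 1 to 4 in inAGTuC, so that the size of these differences rests on few UMIs. Fos also had just 5 body UMIs in AGTuC.

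**Figure D5:**
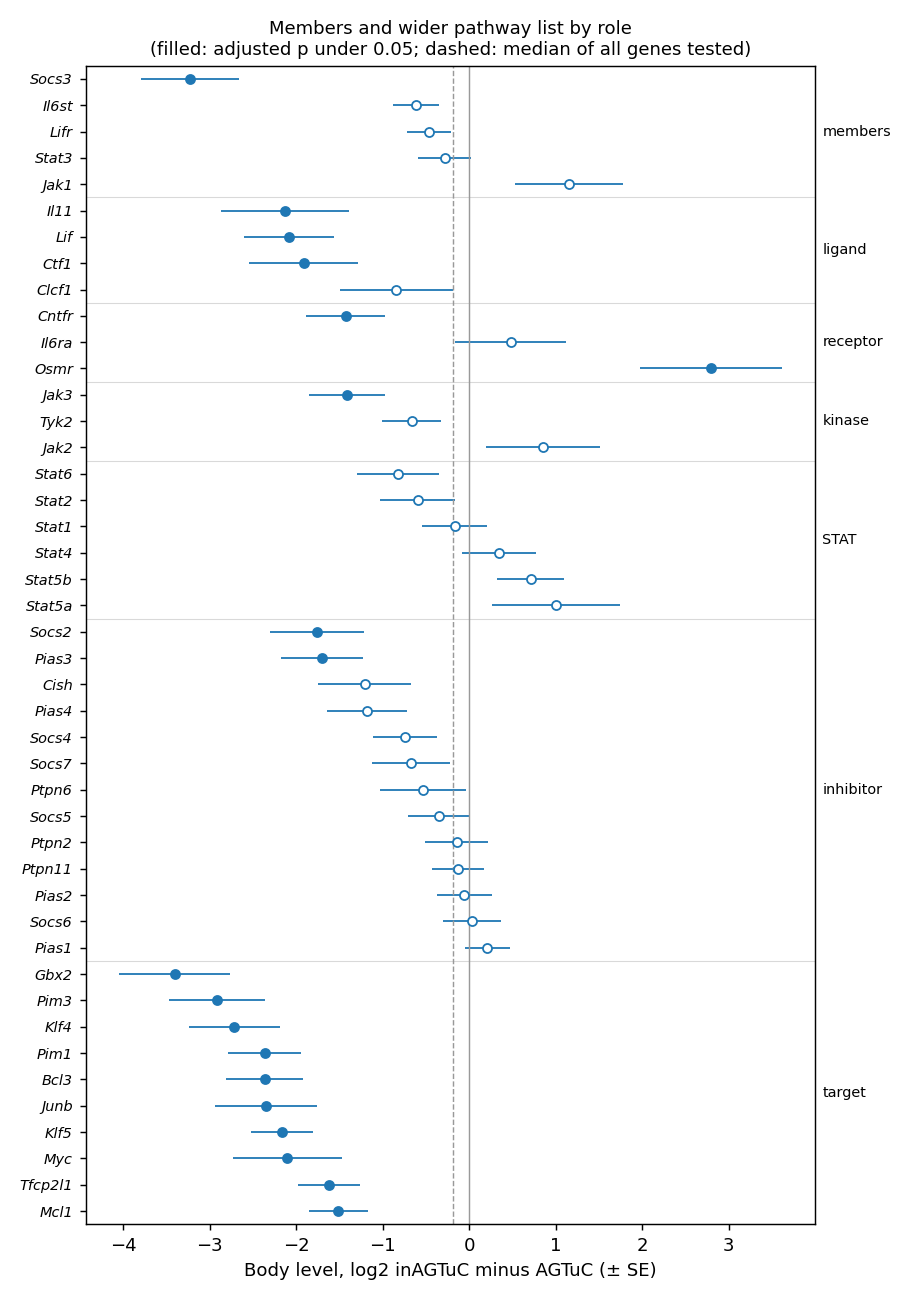
Log2 difference in body level, inAGTuC minus AGTuC, with its SE (x axis), for the members and the tested genes of the wider list by role. Filled points passed the limma test at an adjusted p under 0.05, the dashed line is the median of all genes tested at -0.19, and all 10 tested targets and Socs3 lie on the lower side.

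Likeness was measured as Pearson's r of log2(body CPM + 0.5) over the 16 libraries and batches, among 5555 genes with at least 500 body UMIs. The units share assays and batches, the pile bases were kept in, and no p is given. The genes most like Socs3 were Fbf1 (r = 0.945), Slc7a5 (0.921) and Ahcy (0.92), and those most like Jak1 were Tln2 (0.917), Fam172a (0.901) and Tab3 (0.894). For Stat3 they were Rbpms, Foxo3 and Xrcc5 (0.841 to 0.884), for Lifr Cenpe, Foxk2 and Bid (0.863 to 0.878), and for Il6st Zzz3, Ythdf2 and Hnrnpd (0.811 to 0.838). With pile bases left out, an alternative chosen after the data had been seen, the genes most like Jak1 were 3 others, Igf2bp2 (0.898), Fggy (0.897) and Ostf1 (0.893). Those most like Socs3 were again Fbf1, Slc7a5 and Ahcy, while for Stat3 they were Rbpms, Foxo3 and Cabin1, for Lifr Dut, Cenpe and Bid, and for Il6st Zzz3, Rnf145 and Tmed10. Among the members themselves, Lifr and Stat3 were most alike (r = 0.74), and Lifr and Jak1 ran opposite (r = -0.751). Without pile bases these were 0.648 and -0.555, and Il6st and Jak1 went from 0.0179 to -0.439.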

How the data were processed

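The authors trimmed adaptors with cutadapt, mapped reads to mm10 with Bowtie2 and removed duplicates with UMI-tools, per the labels and methods, and deposited 1 list of reads per library with the mapping quality of each read as its score. Counts given here are reads per window of curated RefSeq genes (GRCm38), placed by their 5′ end on the strand opposite to the listed one. Reads shared between libraries were left out, 28.9% of those in the 10 scGRO-seq batches that the study plots by name. Nearly all molecules (99.7%) listed for Exp261_c16 under scGRO-seq recur under inAGTuC, so they were counted for inAGTuC alone. Kept cells had at least 1000 UMIs and 750 genes, in libraries with at least 24 such cells, and a median of 3435.5 UMIs.

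All assays entered 1 fit by limma 3.58.1 voom (R 4.3.3) over genes with at least 20 UMIs in promoter and in body, or 50 in the body, with Benjamini-Hochberg adjustment over all genes and a threshold of 0.05. Promoter and body columns of a library formed a block. The fit was tested on simulated data. Other steps used Python 3.11.15, numpy 2.4.6, scipy 1.17.1, pandas 2.3.3 and matplotlib 3.10.9.

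The members and lists were chosen with earlier results of these data known. Named genes are the members, per role of the wider list the 3 with the highest body level in pooled scGRO-seq cells and called genes with the largest difference, and the 3 most alike per member. Some are counted without values. Others are named because they reached a minimum only through AGTuC. Alternatives covered windows, starts, scaling, filters, reads, cells, blocks and leaving out each library or batch. Enhancers were not analysed here, and 1 gene of the wider list is not reported here.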

Additional observations from a re-analysis of the deposited data

Results flagged for a closer look

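Of 30 groups of values for the members that were examined, 5 had a highest value far from the rest by Dixon's test, of which chance gives about 1 in 20 groups. Jak1 had a body level of 6.18 CPM per kb in scGRO-seq batch Exp260b and a share of 22.7% of its cells thinned to 1000 UMIs, both far above the other 9 batches and in the batch that gave 604 of the 704 UMIs of the pile. The ratio of promoter to body UMIs of Stat3 was 0.333 in Exp263, from 11 promoter and 33 body UMIs. In Exp156, the batch with the lowest mean depth at 2166 UMIs per cell, the thinned shares of Lifr and Socs3 were 18.4% and 3.54%.

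The pile on Jak1 also appeared in data outside the 10 batches. There, 40 UMIs at the same base came from 7 of 22 scGRO-seq libraries, while the AGTuC and inAGTuC libraries had none.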

How the results depend on the processing

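No paired analysis was possible because replicate numbers were given in accession order alone. Exp208 and Exp261, which held inAGTuC and scGRO-seq libraries with enough kept cells, were fitted with batch as a block instead. For promoter over body between inAGTuC and AGTuC, 3 members were called, 0 with median-ratio size factors and 0 to 3 when each library or batch was left out in turn: 0 without either AGTuC library and 1 without inAGTuC library Exp208_c12. Without the latter, Lifr and Stat3 lost their calls (limma adjusted p = 0.0749 and 0.0616); Stat3 also lost its call without Exp208_c14 or at mapping quality of at least 10, and Lifr without Exp261_c16. All genes called numbered 729 with median-ratio factors, 1699 without Exp125c_c01 and 1399 without Exp125c_c02, against 5236. For body level, 1 member was called, and 1 to 2 when leaving 1 out, since Jak1 passed without Exp260b (limma adjusted p = 0.0195) and, as 2 calls, with pile bases left out. Body calls over all genes were 3047 by limma-trend, 2686 without Exp125c_c01 and 967 without Exp125c_c02, against 5072. For promoter over body, median-ratio factors were set separately for promoter and body columns, which scales out in part what most genes share. The cause of the other changes was not tested. Socs3 was called lower in body level under every alternative run, at -3.64 to -2.68.

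Between scGRO-seq and inAGTuC no member was called under any alternative, and small differences changed sign. In promoter over body, Lifr turned to 0.0032 with median-ratio factors, 0.020 at mapping quality of at least 10 and 0.91 with libraries as units and batch as a random block, and ran from -0.45 to 0.60 when leaving 1 out. Jak1 turned to 0.24 without pile bases and 0.52 with the random block, and ran from -0.73 to 0.13, and Socs3 turned to 0.19 with the random block. That fit called 2069 genes, and its block had no effect because library was already a term, so libraries of 1 batch counted as separate units. Leaving out Exp261_c16 gave 4 called genes, and 107 for body level. In body level, Jak1 turned to -0.33 without pile bases and -0.24 with batch as a fixed block, and ran from -0.057 to 0.47. Il6st turned to -0.35 with the fixed block, and Stat3 ran from -0.39 to 0.041. Members could not be tested for promoter over body, or Socs3 for body level, in the fixed block, for want of UMIs.

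The share of cells with any member, 58.5% as a mean over batches, was 24.5% with cells thinned. Of neighbours in the order, 1 pair had an unadjusted p under 0.05, 2 with all deposited reads and 0 to 1 when leaving 1 batch out, with 0 without each of Exp156, Exp160, Exp208, Exp211, Exp236 and Exp260. Il6st over Stat3 turned to -0.35 in the first 10 kb, and Lifr over Il6st turned to -0.015 at mapping quality of at least 10 and ran from -0.0099 to 0.15. Few promoter UMIs and Socs3 UMIs limit what these depths can show.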
